A study of Schizosaccharomyces pombe with 36 samples.

Results

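The tra1-spTra2 strain of fission yeast (Schizosaccharomyces pombe) carries a hybrid tra1 allele, in which the short stretch of Tra1 that contacts the rest of the SAGA complex was exchanged for the matching stretch of its paralog Tra2. Its RNA was compared here with that of the wild type (WT) across all genes. The libraries were chosen by their labels: the 3 tra1-spTra2 and the 3 WT libraries, 6 of the 36 in the series, which holds 12 conditions of 3 cultures each. The study used RNA-seq to find out how Tra1 and Tra2 are assembled into SAGA and NuA4, and how each complex shapes gene expression.

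SAGA and NuA4 are transcription co-activator complexes: both are brought to promoters by activators, SAGA acetylates and deubiquitinates histone tails and helps to load TATA-binding protein, and NuA4 acetylates other histone tails. Tra1 is a very large pseudokinase, related to the PIKK family of kinases but without kinase activity, and serves as the docking surface for activators. Most eukaryotes use a single Tra1 in both complexes. In S. pombe the gene is duplicated, and Tra1 resides in SAGA and Tra2 in NuA4.

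The exchanged stretch is shown first, because it defines the tra1-spTra2 allele. The study calls its WT controls isogenic. Both sequences are coding sequences read from RefSeq's gene models on the ASM294v3 assembly, 54 codons each. The tra1 stretch (SPBP16F5.03c, chromosome II, minus strand) spans codons 2586 to 2639 of 3661, and the tra2 stretch that replaced it (SPAC1F5.11c, chromosome I, plus strand) lies in a protein of 3655 residues. The boundaries in tra2 were taken from the study's description of the allele, and those in tra1 follow from an alignment of the RefSeq proteins, whose numbering can differ from the study's. Capitals mark codons whose amino acid differs between the paralogs.
tra1: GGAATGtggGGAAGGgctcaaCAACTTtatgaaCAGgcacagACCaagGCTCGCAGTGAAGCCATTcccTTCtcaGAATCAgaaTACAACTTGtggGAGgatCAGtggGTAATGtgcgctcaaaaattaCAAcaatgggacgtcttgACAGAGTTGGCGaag
tra2: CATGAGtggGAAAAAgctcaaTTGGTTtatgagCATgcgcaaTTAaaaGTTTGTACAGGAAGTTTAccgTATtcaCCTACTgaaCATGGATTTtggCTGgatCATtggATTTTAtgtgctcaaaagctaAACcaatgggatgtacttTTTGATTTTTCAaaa
Of the 54 residues encoded, 25 (46.3%) were identical between the paralogs. Over the whole proteins 36.8% of 3566 aligned residues were identical, and windows of this length ranged from 9.3% to 83.3% with a median of 33.3%. The stretch was therefore not among the most divergent windows of the pair, since 74.9% of 3608 windows had an identity at or below it. Counts per gene do not show the exchange itself, since the replaced stretch lies inside a gene that both strains transcribe.

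The tra1-spTra2 and WT cells were grown to mid-log phase in the rich medium YES. The study built domain swaps in tra1 in a pair of steps with a ura4 cassette that is removed again, or alternatively by CRISPR-Cas9 editing. Which route gave the tra1-spTra2 allele is not stated. Several individual clones were purified per transformation. Which of them gave these libraries is not given in the sources used here. To set the values in context, 4 other strains of the series were used. These were tra1D, from which tra1 is deleted, tra1-scTra1, whose Tra1 has the same stretch from Saccharomyces cerevisiae Tra1, spt20-HITD-PK3, whose Spt20 lacks the HIT region that contacts Tra1 and bears a PK3 tag, and cre-ER, which has an unaltered tra1, expresses a Cre recombinase fused to an estrogen receptor and was grown in YES with the solvent DMSO. The first 3 were grown like WT. Totals ranged between 5896848 and 8053998 counts in tra1-spTra2 libraries and between 6208529 and 8101004 in WT libraries. Among the WT libraries, replicate 3 stood a little apart (r = 0.990 and 0.986 with the other WT libraries, against 0.995 between those), while the tra1-spTra2 libraries correlated at 0.994 to 0.995. The p-values measure the spread between these cultures.

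The targeted gene itself was transcribed at the WT level. tra1 had 105, 94.6 and 99.4 CPM (counts scaled to library size with TMM factors) in tra1-spTra2, against 98.7, 97.5 and 90.6 CPM in WT, and the groups overlapped (log2 fold change 0.06 ± 0.07, SE, edgeR adjusted p = 0.545). In tra1D the gene had 0.736, 0.339 and 0.262 CPM. tra2, the donor of the stretch, had 123, 118 and 123 CPM in tra1-spTra2 and 123, 121 and 121 CPM in WT. The marker ura4 gave 202, 208 and 192 CPM in tra1-spTra2 against 219, 219.8 and 207 CPM in WT (adjusted p = 0.211 from edgeR), and none of the 8 common strain markers tested passed the test below, with edgeR finding 1 higher and 1 lower at an unadjusted p under 0.05 and DESeq2 calling 0. None of the 4 P-cell genes or the 5 M-cell genes tested, which mark the mating types, was called by edgeR. Over all genes edgeR called 3.71%, so lists this short can hold no called gene by their size alone. At an unadjusted p under 0.05, 1 P-cell gene was higher and 1 lower, and 2 M-cell genes were lower, while DESeq2 called 0 P-cell genes and 1 M-cell gene. The M-cell gene mfm2 was called lower by edgeR without WT replicate 3 (−0.95, adjusted p = 0.00852).

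Across the genome, more genes were lower than higher in tra1-spTra2. A gene is called here at an adjusted p of at most 0.01 (edgeR's quasi-likelihood test, Benjamini-Hochberg) and a fold change of at least 1.5. Of 4908 genes tested, 182 (3.71%) were called, 54 higher (1.1%) and 128 lower (2.61%) in tra1-spTra2. Most changes were moderate: 24 genes rose and 60 fell at least 2-fold, 4 rose and 23 fell at least 4-fold, and the median of the called genes was 0.92 on the log2 scale for rises and −0.89 for falls, with a median of 0.0036 over all genes tested. The libraries of both groups did not overlap for any of the 182 genes, which was also true of 2194 genes (44.7%) of all those tested. When each library was left out in turn, 68 of the 182 genes were called in all 6 fits, 19 higher and 49 lower. The counts fell to 105 without WT replicate 1, and to 77, 86 and 94 without tra1-spTra2 replicates 1, 2 and 3. In a joint fit of all 36 libraries 8 of the genes named below were no longer called: ght4 (adjusted p = 0.0249), plb1 (0.0153), SPAC1039.02 (0.0175), str1 (0.0182), fio1 (0.0137), hsp16 (0.0139), ssa1 (0.0621) and tif51 (0.0125).

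**Figure D1:**
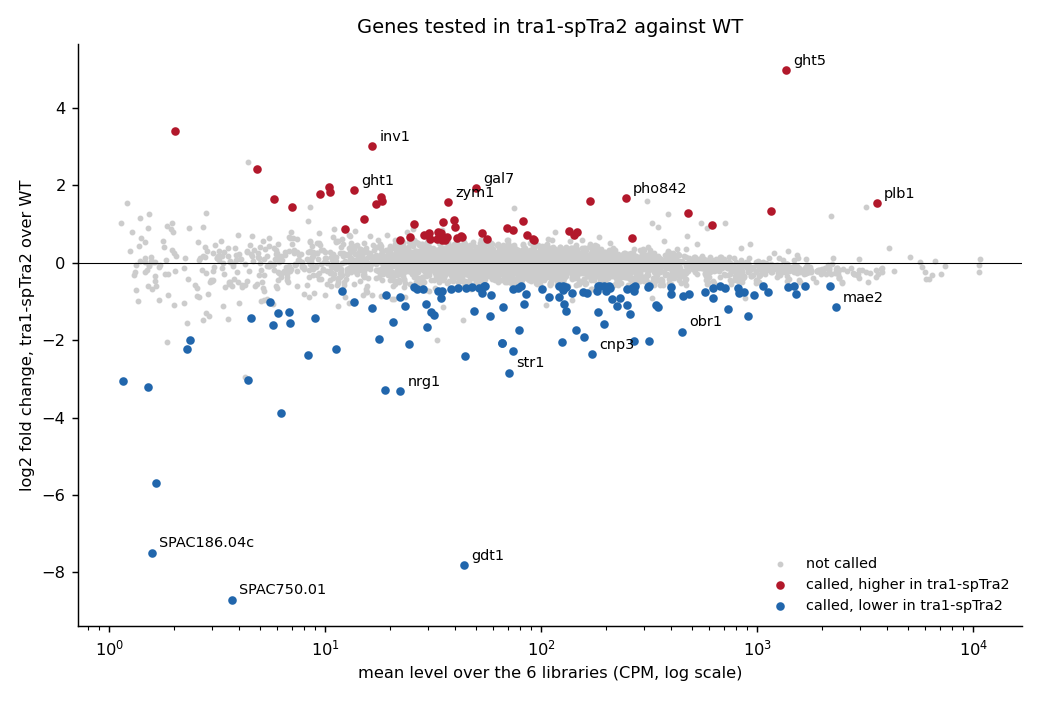
Mean level (CPM over the 6 libraries, log axis) against the log2 fold change of tra1-spTra2 over WT for each of the 4908 genes tested; coloured points are the 54 genes called higher and the 128 called lower. The most extreme points lie on the lower side, gdt1 (−7.81) among them, and ght5 (4.97) is the highest point.

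The clearest rises were in genes of sugar uptake and use. ght5 encodes the high-affinity glucose transporter of S. pombe, which is needed for growth on little glucose. It had 2589, 2431 and 2922 CPM in tra1-spTra2, against 95.7, 127 and 28.7 CPM in WT, a log2 fold change of 4.97 ± 0.45 (edgeR adjusted p = 0.000316). The groups lay far apart, and WT replicate 3 was the lowest library. Related loci share 29.6% of its windows of 50 bases, so some of its reads may belong to other transporter genes. inv1, the secreted invertase that splits sucrose, had 27.8, 30.0 and 30.2 CPM in tra1-spTra2, against 3.20, 4.02 and 3.71 CPM in WT (3.01 ± 0.14, adjusted p = 1.12e-05). Both groups were tight for inv1, with a wide gap between them. Of the 7 hexose transporter genes tested, 3 rose (ght5, ght1 and ght4) and none fell under edgeR's test, with a list median of 0.77. The share called was 42.9%, against 3.71% over all genes. At an unadjusted p under 0.05 these numbers were 4 and 1, and DESeq2 called 3 and 0. ght1 had 20.4, 18.1 and 25.6 CPM in tra1-spTra2 against 5.25, 6.79 and 5.17 CPM in WT (1.88 ± 0.19, adjusted p = 0.000489). ght8, which made up most of the list's sum in WT, was not called, with 1112, 1143 and 1301 CPM in tra1-spTra2 and 1129.8, 1153 and 961 CPM in WT, groups that overlap. Together the 8 transporters of the list, tested or not, summed to 3929, 3799 and 4509 CPM in tra1-spTra2, against 1472, 1535 and 1276 CPM in WT. ght4 lost its call without WT replicate 1 (adjusted p = 0.0365) and without tra1-spTra2 replicate 1, 2 or 3 (0.0227, 0.0343 and 0.0363).

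Some of the galactose genes rose with them. gal7, a uridylyltransferase of the galactose pathway, had 78.3, 85.4 and 74.5 CPM in tra1-spTra2 against 22.1, 23.3 and 17.0 CPM in WT (1.93 ± 0.12, adjusted p = 3.38e-05 from edgeR). gal10, the epimerase of the pathway, had 10.5, 23.6 and 15.4 CPM against 4.48, 3.74 and 4.52 CPM in WT (1.97 ± 0.31, adjusted p = 0.00366), a rise that lost its call without WT replicate 1 (0.0212) and without tra1-spTra2 replicates 2 (0.0101) or 3 (0.0146). The neighbouring galactokinase gene gal1 did not follow: 14.5, 11.3 and 15.5 CPM in tra1-spTra2 overlapped with 14.1, 18.8 and 13.5 CPM in WT (−0.18, adjusted p = 0.485). Within the list of 13 glucose-repressed and galactose genes, 4 rose (inv1, gal7, gal10 and scr1) and 3 fell (mae2, dak2 and agl1), with a median of 0.15. The share called was 53.8%, against 3.71% over all genes. Leaving out WT replicate 3 gave 4 higher and 4 lower. fbp1, the gluconeogenic enzyme whose gene is the textbook example of glucose repression, stayed low in both strains, with 3.94, 3.73 and 5.01 CPM in tra1-spTra2 and 3.45, 4.02 and 4.36 CPM in WT. mae2, the malic enzyme, fell: 1527, 1343 and 1439.9 CPM in tra1-spTra2 lay below 3344, 3708 and 2523 CPM in WT (−1.15 ± 0.13, adjusted p = 0.000921). scr1, the repressor that acts in glucose repression, rose by 0.90 on the log2 scale, a call lost without WT replicate 1 (adjusted p = 0.0467) and without tra1-spTra2 replicates 1 (0.0394) or 3 (0.0257), and dak2, a dihydroxyacetone kinase, fell by 2.09, a call lost without tra1-spTra2 replicates 1 (0.0144), 2 (0.0105) or 3 (0.0125). rsv1, another repressor of this kind, rose at a low level: 2.11, 4.21 and 4.84 CPM in tra1-spTra2 against 0.512, 0.139 and 0.323 CPM in WT (3.42 ± 0.53, adjusted p = 0.00324), not called without WT replicate 1 (0.0153) or tra1-spTra2 replicates 2 (0.0181) or 3 (0.0147). Its neighbour rbd3, a rhomboid peptidase gene, rose as well, with 16.2, 16.3 and 16.9 CPM in tra1-spTra2 against 5.37, 3.46 and 5.01 CPM in WT (1.83 ± 0.18).

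A single culture with an unaltered tra1 showed part of this pattern. Of the cre-ER cultures, replicate 1 had 2552 CPM of ght5 while replicates 2 and 3 had 157 and 128 CPM. For inv1 the same cultures had 42.4, 3.64 and 4.24 CPM, and for plb1, described below, 6589.8, 1522 and 1759.6 CPM. gal7 differed less among them, at 29.3, 16.2 and 16.8 CPM, all below 3 of 3 tra1-spTra2 libraries. What sets that culture apart, and whether it bears on the tra1-spTra2 cultures, was not tested.

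**Figure D2:**
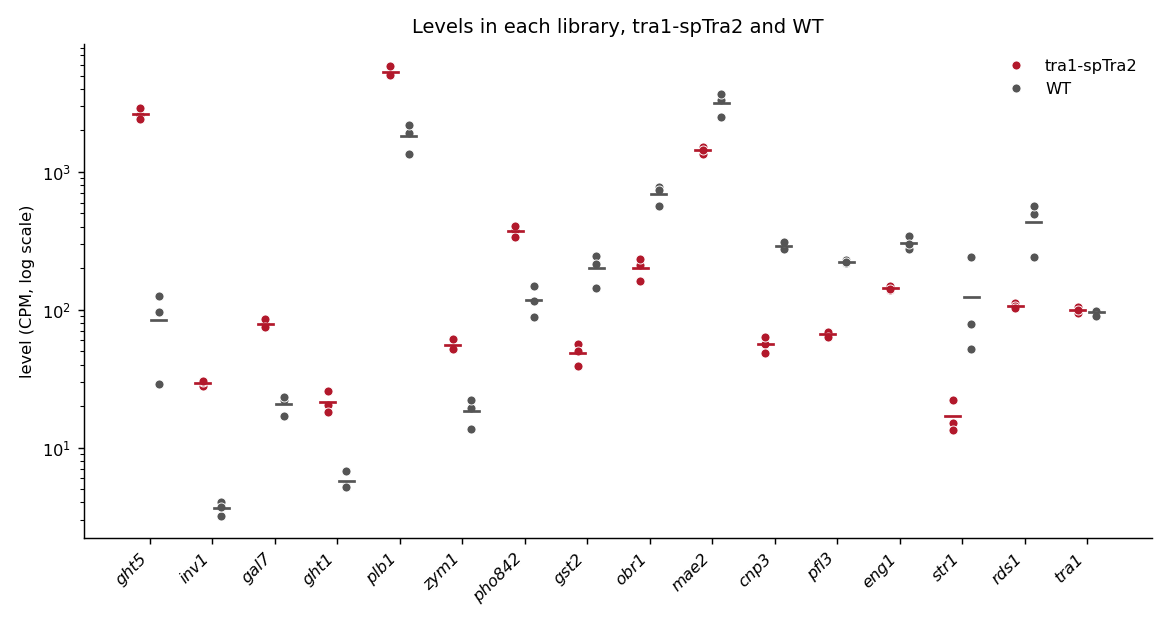
CPM (log axis) of 16 genes in each library, with tra1-spTra2 to the left and WT to the right of each panel; points are libraries and bars are means. The groups do not overlap in any panel but that of tra1, and the WT libraries spread most for ght5 and str1.

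Among the other rises were single genes of lipid, metal and sugar acid metabolism. plb1, a lysophospholipase, was the most abundant gene called, with 5072, 5072 and 5829 CPM in tra1-spTra2, against 1930.1, 2191 and 1351 CPM in WT (1.55 ± 0.16, edgeR adjusted p = 0.000532), though not in the joint fit (0.0153). zym1, a metallothionein that binds zinc, had 52.3, 52.0 and 61.5 CPM in tra1-spTra2 against 19.4, 22.3 and 13.7 CPM in WT (1.56 ± 0.16, adjusted p = 0.000451). It was the only one of 11 copper and zinc genes to be called (9.09%, against 3.71% over all genes). gcd1, annotated as a glucose-6-phosphate dehydrogenase, rose by 1.70 ± 0.19 and idn1, a gluconate kinase, by 0.71 ± 0.06 on the log2 scale. Both remained called in all 6 fits without a library. SPAC27D7.11c, of the But2 family, rose by 1.60 ± 0.20 and SPCC1235.01, an uncharacterized gene, by 1.30 ± 0.12, also in all 6 fits. Others of the 15 largest rises did not hold in every such fit. SPAC11D3.18c, a carboxylic acid transporter gene (1.59), was lost without WT replicate 1 (adjusted p = 0.0161). nep2, a NEDD8 protease gene (1.52), was lost without WT replicates 1 (0.0204) and 2 (0.0144) and tra1-spTra2 replicates 1 (0.028) and 3 (0.0178). SPAC1039.02, a phosphatase gene (1.34), was lost without WT replicate 1 (0.0147) and tra1-spTra2 replicates 1 (0.0181) and 2 (0.0151). The stress-activated kinase gene hri1, whose product phosphorylates eIF2, rose by 0.77 and was lost without WT replicate 1 (0.0182) and tra1-spTra2 replicates 1 (0.0228) and 3 (0.0191).

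The phosphate transporters split by gene. Of the genes related to the main phosphate transporter gene pho84, pho842 is named by its size of change, and pho841, pho843 and prt2 were chosen after their values were seen. pho842 had 378, 408 and 337 CPM in tra1-spTra2 against 116, 89.2 and 149 CPM in WT, a rise of 1.67 ± 0.16 on the log2 scale (adjusted p = 0.000361 from edgeR). pho841 moved the other way, with 83.3, 96.8 and 114 CPM in tra1-spTra2 against 286, 238 and 352 CPM in WT (−1.58 ± 0.15, adjusted p = 0.000365). pho843 fell too, with 84.3, 80.6 and 80.9 CPM in tra1-spTra2 and 175, 153 and 187 CPM in WT (−1.07 ± 0.08, adjusted p = 0.000127). All 3 were called in each fit that left out a library. pho84 itself was not called, with 1115, 964 and 894 CPM in tra1-spTra2 and overlapping values of 1177, 1282 and 723 CPM in WT (−0.10, adjusted p = 0.73). The noncoding RNA prt2, annotated as a cis-acting repressor of pho84, had 8.43, 12.6 and 9.02 CPM in tra1-spTra2 against 21.9, 18.8 and 27.9 CPM in WT (−1.17 ± 0.20, adjusted p = 0.00559), a call lost without WT replicate 1 (0.0236) and tra1-spTra2 replicates 1 (0.0299), 2 (0.0109) or 3 (0.0264). Of the 9 members of the phosphate list, which holds pho84 but none of the other transporters just named, edgeR called 0 (3.71% over all genes). At an unadjusted p under 0.05, 1 was higher and 3 lower, and DESeq2 called 0. pho1, the secreted acid phosphatase, had 621, 534 and 589 CPM in tra1-spTra2 and 373, 473 and 237 CPM in WT without passing the test (0.69, adjusted p = 0.041).

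The deepest falls lay side by side near one end of chromosome I. gdt1 (SPAC186.05c), the 13th annotated gene from that end, encodes a protein of the GDT1 family, which in budding yeast transports calcium and manganese in the Golgi. It had 2, 2 and 4 counts in tra1-spTra2, against 723, 643 and 505 counts in WT (−7.81 ± 0.19, edgeR adjusted p = 1.23e-07). Scaled to library totals, the summed WT counts were 220.5 times those of tra1-spTra2. The 95% counting interval was 112 to 511 and covers counting error only. SPAC186.04c, the next gene inward, had 0 counts in each tra1-spTra2 library against 27, 21 and 19 in WT. Taking 3 counts per library as the floor, it was at least 7.20-fold lower. SPAC186.06, the next gene outward, had 0, 1 and 0 counts in tra1-spTra2 against 25, 31 and 14 in WT, and it lost its call without tra1-spTra2 replicate 1 (adjusted p = 0.0103) or 2 (0.0115). SPAC750.01, an aldo-keto reductase gene further outward with 32.8% of its windows shared with other loci, had 0 counts in each tra1-spTra2 library against 53, 50 and 52 in WT, at least 16.9-fold lower. The pyruvate decarboxylase gene pdc102, between them, had 0 counts in each tra1-spTra2 library and 9, 8 and 4 in WT, too few to be tested.

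The loss of counts did not extend inward. pfl9, a cell wall glycoprotein gene 17th from the end, had 127, 177 and 77 counts in tra1-spTra2 and 70, 58 and 81 in WT, groups that overlap (0.82, adjusted p = 0.0356 from edgeR). SPAC869.01, an amidase gene next to it, had 39, 108 and 24 counts in tra1-spTra2 against 12, 8 and 7 in WT, above WT in each library but just short of the threshold (2.59, adjusted p = 0.0101). yhb1, a nitric oxide dioxygenase gene beside it, fell to 77.3, 78.5 and 74.8 CPM in tra1-spTra2, against 176, 159 and 214 CPM in WT (−1.25 ± 0.10). In cre-ER, where tra1 is unaltered, yhb1 averaged 77.1 CPM, near the level in tra1-spTra2. Its means were 70.3 CPM in tra1D, 128 CPM in tra1-scTra1 and 107 CPM in spt20-HITD-PK3. The level of gdt1 also varied among the other strains: tra1D had 21.8, 0.848 and 0.394 CPM, tra1-scTra1 2.99, 3.16 and 6.90 CPM, spt20-HITD-PK3 3.67, 0.164 and 0.292 CPM and cre-ER 33.3, 47.2 and 23.3 CPM, while WT had 92.5, 89.1 and 81.6 CPM. In no library of these mutants or of cre-ER did gdt1 reach the WT level, and within tra1D and spt20-HITD-PK3 a single library stood above the others. SPAC186.04c averaged 0.442, 0.473, 0.0547 and 1.97 CPM in tra1D, tra1-scTra1, spt20-HITD-PK3 and cre-ER, against 3.14 CPM in WT. SPAC186.06 averaged 0.449, 0.409, 0 and 1.61 CPM against 3.25 CPM, and SPAC750.01 0.198, 0.426, 0 and 9.97 CPM against 7.37 CPM. These low levels were thus shared by the other mutants, tra1-scTra1 among them. Counts of RNA cannot tell silent genes from genes that are absent from a strain.

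**Figure D3:**
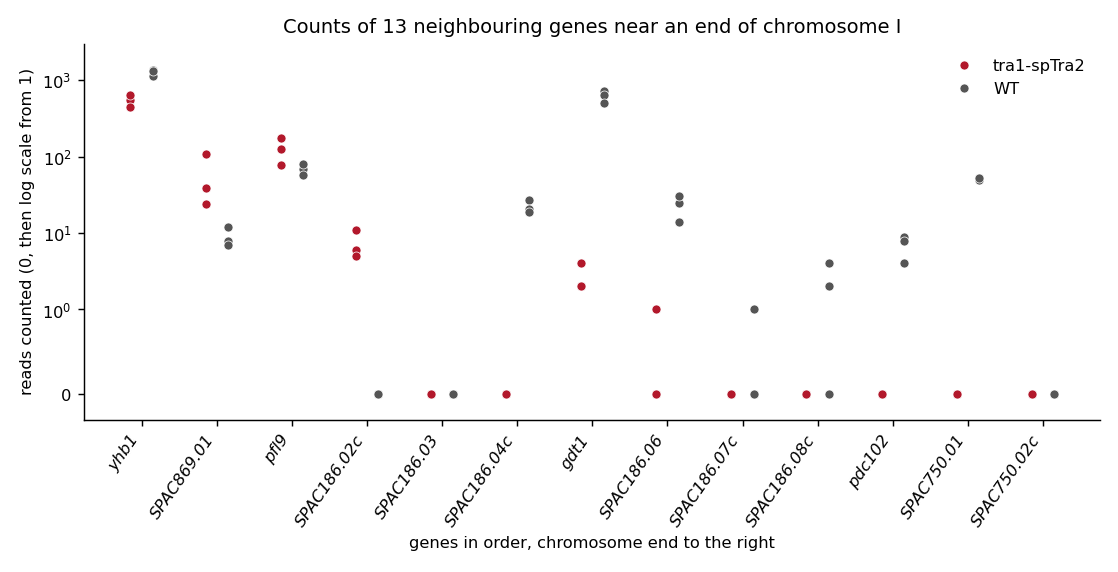
Counts per library of 13 neighbouring genes near one end of chromosome I, in gene order with the end to the right; tra1-spTra2 libraries are drawn before WT libraries. gdt1, SPAC186.04c, SPAC186.06 and SPAC750.01 are at or near 0 in tra1-spTra2 and present in WT, whereas pfl9 and SPAC869.01 further inward are not lower.

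Falls were frequent near chromosome ends in general. Among the 40 outermost annotated genes of each chromosome end, 167 were tested, of which 27 fell and 5 rose, with a median of −0.14. Without WT replicate 3 these numbers were 35 and 8. The share called lower was 19.0% in the outermost 20 genes (12 of 63) and 14.4% in the next 20 (15 of 104). It was 3.02% from the 41st to the 80th gene (7 of 232), 2.99% from there to the 160th (14 of 469) and 1.98% beyond (80 of 4039), against 2.61% over all genes. The share called higher in the same steps was 6.35% (4 genes), 0.962% (1), 4.31% (10), 1.07% (5) and 0.842% (34), against 1.1% over all genes. Several of the named falls lie there in runs: on chromosome II SPBPB10D8.01, a cysteine transporter gene, SPBPB10D8.02c, an arylsulfatase gene, and SPBPB21E7.09, an asparaginase gene, are neighbours. SPBPB10D8.02c had 9.28, 18.5 and 14.4 CPM in tra1-spTra2 against 76.4, 83.7 and 64.6 CPM in WT (−2.40 ± 0.20, adjusted p = 0.000204 from edgeR). SPBPB10D8.01 had 19.3, 34.3 and 21.2 CPM in tra1-spTra2 against 126, 101 and 142 CPM in WT (−2.28 ± 0.20). Both groups were well separated for each gene. eno102, an enolase gene of the same end, had 3.09, 2.41 and 2.51 CPM in tra1-spTra2 against 13.9, 12.3 and 15.7 CPM in WT (−2.38 ± 0.19). Across the genome 21 pairs of adjacent genes were both called, and 20 of these pairs moved in the same direction, 18 lower and 2 higher. The exception was wwm3 (1.64) and wwm2 (−0.66). The runs just named are among these pairs, and 128 of all 182 called genes were lower. How many such pairs scattered calls would give was not tested.

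A few genes of amino acid and sulfur use and of transport were called lower. car1, the arginase, was the one gene called among 51 of amino acid metabolism (1.96%, against 2.61% called lower over all genes, list median −0.09). It had 28.1, 29.1 and 30.2 CPM in tra1-spTra2 against 71.3, 76.1 and 58.5 CPM in WT (−1.24 ± 0.11, edgeR adjusted p = 0.000278). sua1, the sulfate adenylyltransferase that starts sulfate assimilation, fell by 0.75 ± 0.07 on the log2 scale. It was the one gene called among 19 of sulfur and methionine metabolism (5.26%, against 2.61% called lower over all genes, median −0.15). cat1, a transporter of cationic amino acids, fell by 0.88 and was lost without WT replicate 1 (0.0206) and tra1-spTra2 replicates 1 (0.0227), 2 (0.0274) and 3 (0.0122). It was the only member of the 18 genes of nitrogen and amino acid transport that edgeR called lower (5.56%, against 2.61% over all genes). None was called higher by edgeR, 4 were higher and 4 lower at an unadjusted p under 0.05, and DESeq2 called 1 and 1. Without WT replicate 3 edgeR called 2 higher and 3 lower in this list. nrg1, an amino acid permease, had 1.97, 5.66 and 4.51 CPM in tra1-spTra2 against 39.5, 63.3 and 18.7 CPM in WT (−3.31 ± 0.49), and lost its call without WT replicate 1 (adjusted p = 0.0147) or any tra1-spTra2 replicate (0.0183, 0.0143 and 0.0159 without replicates 1, 2 and 3). SPBC23G7.10c, a flavin oxidoreductase gene, was steadier, with 4.78, 2.89 and 2.84 CPM in tra1-spTra2 against 37.9, 42.3 and 23.1 CPM in WT (−3.30 ± 0.29, adjusted p = 0.000291). SPCC569.05c, a spermidine-family transporter gene whose RNA the study names, had 36.1, 40.2 and 47.6 CPM in tra1-spTra2 against 80.7, 74.5 and 120.0 CPM in WT (−1.15 ± 0.18, adjusted p = 0.00344). It lost its call without WT replicate 1 (0.0138) and without tra1-spTra2 replicate 1, 2 or 3 (0.0228, 0.0228 and 0.0125).

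Among iron genes, str1 and fio1 were called lower, and WT varied widely for both. str1, a siderophore-iron transporter, had 15.04, 22.3 and 13.5 CPM in tra1-spTra2 against 79.1, 51.8 and 243 CPM in WT, with WT replicate 3 far above the others (−2.84 ± 0.57, adjusted p = 0.00974 from edgeR). The call was lost without WT replicate 1 (0.0204) and without tra1-spTra2 replicate 1, 2 or 3 (0.0462, 0.035 and 0.0453). fio1, the iron transport multicopper oxidase, had 8.85, 7.95 and 4.51 CPM in tra1-spTra2 against 19.8, 24.9 and 40.9 CPM in WT (−1.96 ± 0.31), also lost without tra1-spTra2 replicate 1, 2 or 3 (0.017, 0.0206 and 0.017). Of the 14 iron genes tested, these 2 fell (14.3%, against 2.61% over all genes) and none rose under edgeR's test, with a median of −0.43. At an unadjusted p under 0.05, 2 were higher and 7 lower, DESeq2 called 0 higher and 4 lower, and without WT replicate 3 edgeR called 0 higher and 4 lower. In cre-ER, str1 had 20.9, 244 and 258 CPM, so that cultures with an unaltered tra1 spanned the whole range between the groups.

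gst2 and obr1 had the largest falls called among 24 genes of glutathione and redox defence. obr1, a quinone reductase, had 211, 161 and 235 CPM in tra1-spTra2 against 777, 564 and 741 CPM in WT (−1.78 ± 0.16, edgeR adjusted p = 0.000291). gst2, a glutathione S-transferase gene that the study also names, had 56.9, 39.3 and 50.3 CPM in tra1-spTra2 against 244, 144 and 216 CPM in WT (−2.05 ± 0.20, adjusted p = 0.000409). All tra1-spTra2 libraries lay far below all WT libraries for both genes. In cre-ER obr1 had 599.5, 632 and 548 CPM and gst2 162, 206 and 158 CPM, near WT and well above tra1-spTra2. The related gene gst3 went the other way, with 48.8, 49.4 and 59.0 CPM in tra1-spTra2 against 32.8, 33.4 and 30.7 CPM in WT (0.69 ± 0.10). It was not called without WT replicate 1 (adjusted p = 0.0147) or tra1-spTra2 replicates 1 (0.0104) and 2 (0.0105). Of 24 redox genes tested, 4 fell (obr1, gst2, caf5 and grx4) and 1 rose, with a median of −0.06. The share called was 20.8%, against 3.71% over all genes. grx4, a glutaredoxin, was not called without WT replicate 3, where its fold change was under the limit (adjusted p = 6.39e-05), and caf5, a polyamine transporter, not without tra1-spTra2 replicate 1 (0.0118) or 2 (0.0117).

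Stress genes moved in both directions. Of 30 genes of the core environmental stress response, 8 were called (26.7%, against 3.71% over all genes), 4 higher and 4 lower, with a median of 0.05. gpd1, the glycerol phosphate dehydrogenase made under osmotic stress, fell to 444, 432 and 470.1 CPM in tra1-spTra2, against 1039, 1277 and 746 CPM in WT (−1.19 ± 0.16, adjusted p = 0.00226 from edgeR). hsp16, a small heat shock protein, had 17.8, 11.3 and 14.2 CPM in tra1-spTra2 against 43.5, 63.9 and 27.1 CPM in WT (−1.65 ± 0.30, adjusted p = 0.00682). The groups did not overlap for either gene, yet both calls were lost without WT replicate 1 and without any tra1-spTra2 replicate, with adjusted p up to 0.0167 for gpd1 and 0.0357 for hsp16. hsp16 and ssa1, a Hsp70 chaperone that fell by 1.06 and lost its call in the same 4 fits (adjusted p up to 0.0392), were the members of the heat shock list called lower. The share of that list called lower was 10%, against 2.61% over all genes. edgeR called none of its 20 tested members higher, with 7 higher and 6 lower at an unadjusted p under 0.05 and 0 and 2 called by DESeq2.

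Cell separation genes lay slightly below WT nearly throughout, and 4 of 20 were called lower (20%, against 2.61% over all genes). These genes encode the glucanases and wall proteins that dissolve the septum between daughter cells. Of the 20 tested, 19 lay below 0 with a median of −0.42, whereas the median of all genes was 0.0036. eng1, the endoglucanase that cuts the primary septum, had 149, 139 and 141 CPM in tra1-spTra2 against 277, 343 and 302 CPM in WT (−1.11 ± 0.08, edgeR adjusted p = 0.000127). adg2, a cell surface protein of the same cluster, had 156, 156 and 163 CPM in tra1-spTra2 against 311, 373 and 335 CPM in WT (−1.10 ± 0.07, adjusted p = 6.57e-05). Each tra1-spTra2 library had about the same level, and each WT library about 2-fold more. agn1, the alpha-glucanase of septum edges, fell by 0.60 (adjusted p = 0.00409) and adg3 by 0.60 (adjusted p = 0.00631). agn1 was not called without WT replicates 2 (0.00746, with the fold change under the limit) and 3 (0.00233, likewise) or without tra1-spTra2 replicates 1, 2 and 3 (0.0245, 0.0244 and 0.0142), nor adg3 without WT replicate 3 (0.00184, likewise) or tra1-spTra2 replicates 1, 2 and 3 (0.0343, 0.0327 and 0.0124). In all, edgeR called 0 higher and 4 lower, 0 and 5 without WT replicate 3. An unadjusted p under 0.05 gave 0 and 16, and DESeq2 called 0 and 4.

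Ribosomal protein genes, 141 of which were tested, showed a small shift in common. Of these, 134 lay below 0, with a list median of −0.19, and 81 were lower and none higher at an unadjusted p under 0.05. edgeR called only rpl102 lower (0.709%, against 2.61% over all genes) and 0 higher, as did DESeq2, and 2 lower without WT replicate 3. rpl102 had 439, 436 and 427 CPM in tra1-spTra2 against 808, 804 and 823 CPM in WT (−0.90 ± 0.05, adjusted p = 3.38e-05). Summed over the list, ribosomal protein genes made up 195619, 183585 and 193623 CPM in tra1-spTra2, against 216403, 238970 and 204703 CPM in WT. rpl102 set itself apart from the list. In cre-ER, where tra1 is unaltered, it had 393, 540.2 and 564 CPM, below WT as well. gar2, the nucleolin of the nucleolus, had 1144, 1167 and 999 CPM in tra1-spTra2 against 1941, 1825 and 2014 CPM in WT (−0.80 ± 0.08, adjusted p = 0.000404). tif51, the elongation factor eIF5A, fell to 1379, 1335 and 1281 CPM in tra1-spTra2, against 1925, 1879 and 2205 CPM in WT (−0.59), lost without WT replicates 1 (0.0102) and 3 (0.000271, with the fold change under the limit) and without tra1-spTra2 replicates 1, 2 and 3 (0.0116, 0.0126 and 0.0125).

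**Figure D4:**
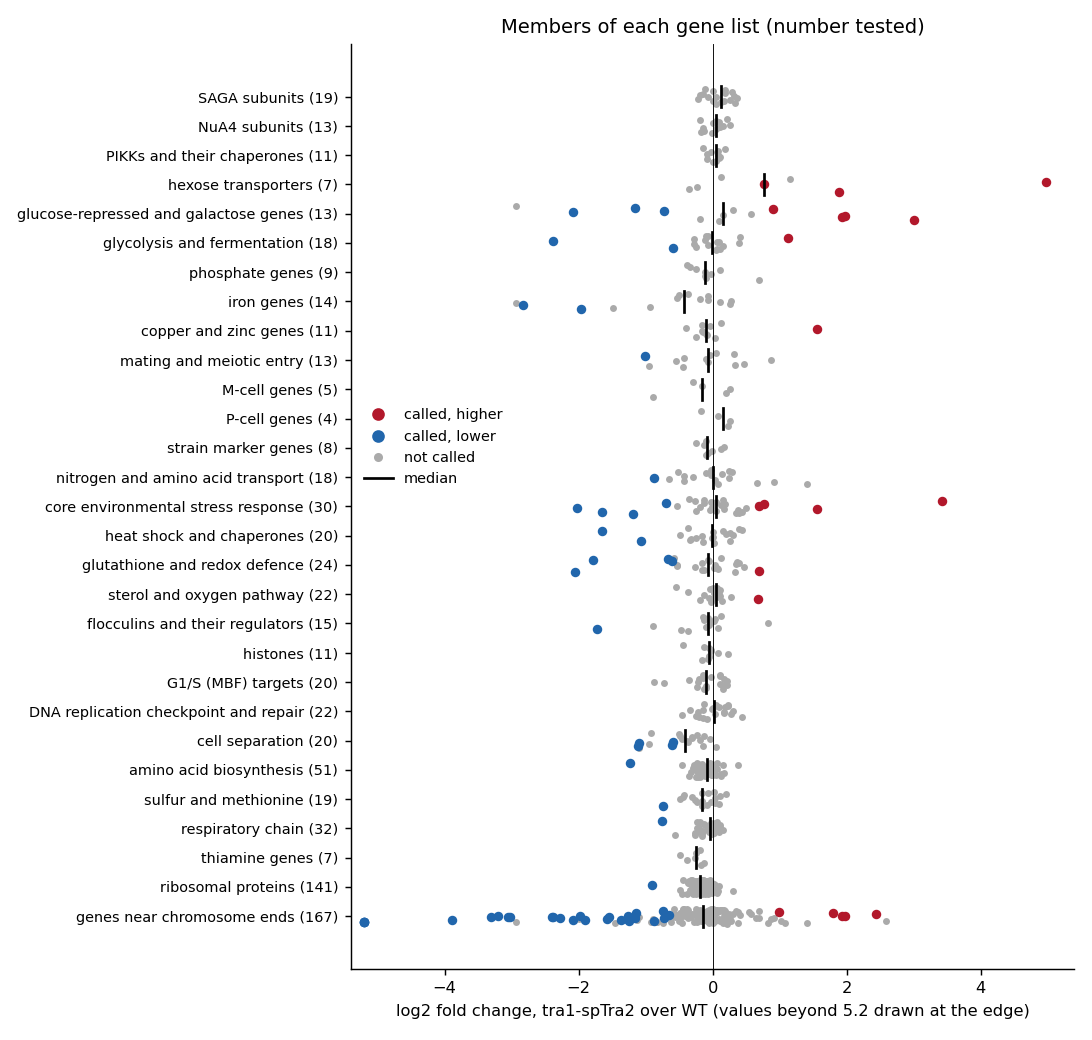
Log2 fold change of tra1-spTra2 over WT for each tested member of the gene lists; each point is a gene, called genes are coloured, and values beyond the axis are drawn at its edge. Cell separation genes (median −0.42), ribosomal proteins (median −0.19) and the 7 thiamine genes (median −0.25) sit left of 0 throughout or nearly so. Iron genes (median −0.43) lie mostly to the left and hexose transporters (median 0.77) mostly to the right. Most other lists are centred near 0.

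cnp3 and pfl3 gave very even falls. cnp3, the S. pombe CENP-C of the inner kinetochore, had 56.8, 48.5 and 63.8 CPM in tra1-spTra2 against 279.7, 277 and 309.6 CPM in WT (−2.36 ± 0.10, edgeR adjusted p = 3.81e-06). Its divergent neighbour abp2, an ARS-binding protein gene named after its value was seen, had 38.7, 30.6 and 40.4 CPM in tra1-spTra2 against 119, 141 and 103 CPM in WT (−1.74 ± 0.14). pfl3, a flocculin of the cell wall with 33.7% of its windows shared with other loci, had 67.3, 69.1 and 63.8 CPM in tra1-spTra2 against 228, 217 and 221 CPM in WT (−1.73 ± 0.06, adjusted p = 7.15e-07). The groups were compact and wide apart for each of these genes. The cre-ER cultures, with an unaltered tra1, were nevertheless close to tra1-spTra2: cnp3 had 62.6, 63.9 and 73.9 CPM there and pfl3 75.8, 77.4 and 79.9 CPM. The same held for SPBC1685.17, an uncharacterized gene that fell to 26.6, 21.0 and 28.2 CPM in tra1-spTra2, against 112, 113 and 92.9 CPM in WT, and that had 23.8, 28.4 and 32.1 CPM in cre-ER. Whether a difference between the WT strain and the others has a part in these falls was not tested. Of the 15 flocculin genes and regulators tested, pfl3 was called lower (6.67%, against 2.61% over all genes) and none higher by edgeR. An unadjusted p under 0.05 gave 1 higher and 5 lower, and DESeq2 called 1 and 2. Without WT replicate 3, 1 was called higher and 2 lower.

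The remaining genes of the 15 largest falls had varied roles. SPAC4H3.08, annotated as a 3-hydroxyacyl-CoA dehydrogenase, had 4.78, 4.46 and 2.34 CPM in tra1-spTra2 against 20.3, 21.6 and 13.6 CPM in WT (−2.23 ± 0.27), and SPAPB24D3.07c, uncharacterized, 136, 114 and 123 CPM against 517, 659.6 and 336 CPM in WT (−2.02 ± 0.21). rds1, a stress-responsive gene, had 111, 107 and 103 CPM in tra1-spTra2 against 493, 566 and 241 CPM in WT (−2.02 ± 0.27). Its call was lost without WT replicate 1 (edgeR adjusted p = 0.0118) and without tra1-spTra2 replicate 1, 2 or 3 (0.0132, 0.0128 and 0.0129). SPAC2H10.01, a transcription factor gene, fell by 2.07 and was lost without tra1-spTra2 replicate 1 (0.0143) or 2 (0.0107). In cre-ER, SPAC4H3.08 had 3.61, 4.55 and 3.14 CPM and rds1 99.6, 35.0 and 95.7 CPM, both at or below the level in tra1-spTra2. Of 18 genes of glycolysis and fermentation, 2 were called lower (eno102 and pfk1) and 1 higher, with a median of −0.0071. The share called was 16.7%, against 3.71% over all genes. Of 32 respiratory chain genes only nde1 was called (3.13%, below the share over all genes). pfk1, the phosphofructokinase of glycolysis, fell by 0.60 (1695, 1707 and 1771 CPM in tra1-spTra2, 2561, 2958 and 2314 CPM in WT) and nde1, an NADH dehydrogenase, by 0.76. pfk1 was lost without WT replicates 1 (0.0184) and 2 (0.00127, with the fold change under the limit) and tra1-spTra2 replicates 1, 2 and 3 (0.0226, 0.0197 and 0.0151). The pyruvate decarboxylase gene pdc201 rose by 1.13, lost without tra1-spTra2 replicates 1 (0.0118) and 3 (0.0102).

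Several groups held no called gene, among them the complexes themselves. None of 19 SAGA subunit genes, 13 NuA4 subunit genes and 11 genes of PIKKs and their chaperones was called by edgeR or by DESeq2. Over all genes edgeR called 3.71%. Lists this short, here and below, can therefore hold no called gene without differing from the rest. At an unadjusted p under 0.05, 8 SAGA genes were higher and 1 lower, 3 NuA4 genes higher and 1 lower, and 1 PIKK-related gene higher and 0 lower. Of all 4908 genes tested, 931 were higher and 993 lower at that limit. The SAGA list had a median of 0.12. Its member nearest to the threshold was sgf73, a subunit of the deubiquitinase module, with 81.2, 80.3 and 81.7 CPM in tra1-spTra2 against 63.6, 68.7 and 63.3 CPM in WT (0.31 ± 0.06, adjusted p = 0.0101), groups that do not overlap but differ by less than 1.5-fold. Histone genes (11 tested, median −0.06), G1/S genes under the MBF factor (20 tested, median −0.10), genes of the replication checkpoint and DNA repair (22 tested, median 0.01) and thiamine genes (7 tested, median −0.25) also held no gene called by edgeR. The unadjusted counts, higher and lower, were 0 and 1 for histones, 2 and 3 for MBF targets, 7 and 5 for checkpoint genes and 0 and 5 for thiamine genes, and DESeq2 called 2 MBF targets lower and otherwise none. The MBF target mik1, a kinase that restrains entry into mitosis, came close, with 23.9, 24.0 and 20.2 CPM in tra1-spTra2 against 35.3, 46.4 and 31.3 CPM in WT (−0.73 ± 0.16, adjusted p = 0.0126). mik1 was called lower by DESeq2 (0.000217), by edgeR in the joint fit (0.00678) and without WT replicate 3 (−0.84), where it was the one MBF target called.

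Sexual differentiation genes changed little against WT. Of 13 genes of mating and meiotic entry, edgeR called 0 higher and spk1 lower (7.69%, against 2.61% called lower over all genes). An unadjusted p under 0.05 gave 2 higher and 5 lower, and DESeq2 called 1 and 2. Without WT replicate 3 edgeR called 0 and 2. spk1, the MAP kinase of the pheromone pathway, had 8.15, 9.27 and 9.69 CPM in tra1-spTra2 against 16.9, 20.2 and 17.6 CPM in WT (−1.01 ± 0.14, adjusted p = 0.00234), a call lost without tra1-spTra2 replicate 1, 2 or 3 (0.0162, 0.0133 and 0.0106). mei2, the RNA-binding protein that starts meiosis, had 14.3, 13.7 and 14.7 CPM in tra1-spTra2 and 26.4, 40.04 and 15.2 CPM in WT, without passing the test (−0.95 ± 0.30, adjusted p = 0.0491). WT varied more than 2-fold for this gene, with replicate 3 next to the mutant. mei2 was called lower by edgeR without WT replicate 3 (−1.22, adjusted p = 0.000733) and by DESeq2 with all libraries (0.00219). Of the other genes whose RNA or promoter the study names, SPCC1884.01 (−0.26, adjusted p = 0.438), SPAC977.12 (−0.18, adjusted p = 0.112), ssa2 (0.26, adjusted p = 0.113) and act1 (−0.19, adjusted p = 0.117) were not called by edgeR either.

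The direct comparison with tra1D asks how the hybrid Tra1 differs from no Tra1. Few genes did: 36 of 4892 (0.736%) were called, 18 higher (0.368%) and 18 lower (0.368%) in tra1-spTra2. Fitted together with all 36 libraries, the count was 12. Of the genes named above, edgeR called nep2 (1.68), SPAC1039.02 (1.00), SPAPB24D3.07c (0.98), rbd3 (0.91) and pdc201 (0.82) higher in tra1-spTra2 than in tra1D. hsp16 (−1.32) was called lower. Of these, only nep2 kept an adjusted p under 0.01 in the joint fit (0.0078). Among 20 heat shock genes 2 were called lower, against 0.368% over all genes. Others of the genes named above did not pass the test, which does not show equal levels. gst2 had 56.9, 39.3 and 50.3 CPM in tra1-spTra2 and 34.9, 55.5 and 50.4 CPM in tra1D, a difference of 0.05 ± 0.16 on the log2 scale (adjusted p = 0.894 from edgeR). eng1 differed by −0.00 ± 0.10, obr1 by 0.30 ± 0.13 and gal7 by 0.13 ± 0.08, none of which passed the test.

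Besides tra1 itself (7.75 ± 0.19), the largest difference was that of SPAC869.01, the amidase gene near the chromosome end (2.48 ± 0.47, edgeR adjusted p = 0.00971), a call lost in 4 of the 6 fits without a library and in the joint fit. The lowest p after that of tra1 was that of ubc7, a ubiquitin-conjugating enzyme gene next to tra1, which had 74.9, 74.7 and 76.3 CPM in tra1-spTra2 against 227, 201 and 219.8 CPM in tra1D (−1.52 ± 0.06, adjusted p = 3.95e-09). gpd3, a glyceraldehyde 3-phosphate dehydrogenase gene, was also lower, with 382, 359 and 432 CPM in tra1-spTra2 against 1284, 1542 and 1128 CPM in tra1D (−1.75 ± 0.11, adjusted p = 5.85e-07). These 3 genes were chosen after their values were seen.

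Mating genes were lower in the hybrid than in the deletion. Of the 13 genes of mating and meiotic entry, edgeR called 5 lower in tra1-spTra2 than in tra1D and 0 higher, with a list median of −0.54 against 0.0040 over all genes. Over all genes 0.368% were called lower in this comparison. An unadjusted p under 0.05 gave 2 higher and 8 lower, and DESeq2 called 0 and 6. mei2 had 14.3, 13.7 and 14.7 CPM in tra1-spTra2 against 49.3, 78.1 and 59.1 CPM in tra1D (−2.12 ± 0.16, adjusted p = 4.12e-06). spk1 had 8.15, 9.27 and 9.69 CPM in tra1-spTra2 against 25.8, 45.1 and 27.6 CPM in tra1D (−1.85 ± 0.21, adjusted p = 0.0003). ste11, the transcription factor that turns on the mating program, had 17.4, 18.3 and 16.2 CPM in tra1-spTra2 against 51.5, 58.5 and 45.1 CPM in tra1D (−1.57 ± 0.12, adjusted p = 5.17e-06). The pheromone gene mfm2 had 7.17, 5.18 and 5.35 CPM in tra1-spTra2 against 17.5, 24.6 and 25.6 CPM in tra1D (−1.93 ± 0.20, adjusted p = 0.000133). In each case all libraries of the deletion lay above all libraries of the hybrid. Sugar genes differed in both directions. Of 12 glucose-repressed and galactose genes tested against tra1D, edgeR called 1 higher and 1 lower in tra1-spTra2. An unadjusted p under 0.05 gave 3 higher and 5 lower, and DESeq2 called 1 and 2. Of 7 hexose transporters edgeR called 1 higher and 0 lower. gal1 was lower in the hybrid (−0.93 ± 0.17, edgeR adjusted p = 0.00595). ght1 was higher, with 20.4, 18.1 and 25.6 CPM in tra1-spTra2 against 7.66, 9.50 and 8.14 CPM in tra1D (1.33 ± 0.18, adjusted p = 0.00102). inv1 had 27.8, 30.0 and 30.2 CPM in tra1-spTra2 against 9.57, 7.64 and 18.1 CPM in tra1D (1.29 ± 0.22, adjusted p = 0.00559). inv1 lost this call without tra1D replicate 1 (0.0331) or 2 (0.0105) and without tra1-spTra2 replicate 1, 2 or 3 (0.0119, 0.0189 and 0.0211). In the joint fit neither ght1 (0.109) nor inv1 (0.326) was called against tra1D. ght5, with 2589, 2431 and 2922 CPM in tra1-spTra2 and 1661, 1654 and 1978 CPM in tra1D, differed by 0.58 ± 0.10 (adjusted p = 0.00433), just under the fold limit. mcs2, which neighbours tra1 on the other side from ubc7, was 2.1 ± 0.17 higher in tra1-spTra2 than in tra1D (adjusted p = 7.7e-06) and, at 23.8, 22.4 and 21.7 CPM, overlapped with WT at 19.1, 20.1 and 27.6 CPM.

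The tra1-scTra1 strain carries the same kind of exchange with a stretch from another species' Tra1. Against it, 122 of 4894 genes (2.49%) were called, 22 higher (0.45%) and 100 lower (2.04%) in tra1-spTra2, and 69 in a joint fit of all 36 libraries. gst2 had 56.9, 39.3 and 50.3 CPM in tra1-spTra2 against 177, 145 and 169.7 CPM in tra1-scTra1 (−1.75 ± 0.12, edgeR adjusted p = 1e-06). obr1 had 211, 161 and 235 CPM in tra1-spTra2 against 607, 552 and 680.0 CPM in tra1-scTra1 (−1.60 ± 0.12, adjusted p = 2.51e-06). eng1 had 149, 139 and 141 CPM in tra1-spTra2 against 276, 297 and 254 CPM in tra1-scTra1 (−0.95 ± 0.07, adjusted p = 1.78e-06). For all 3 genes, and likewise for cnp3 (−1.86) and pfl3 (−1.57), the tra1-scTra1 libraries lay entirely above those of tra1-spTra2. Of the 20 cell separation genes edgeR called 5 lower and 0 higher in tra1-spTra2, with a median of −0.33. An unadjusted p under 0.05 gave 14 and 0, and DESeq2 called 4 and 0. Of 159 genes near chromosome ends 25 were called lower and 4 higher.

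Of 12 glucose-repressed and galactose genes tested against tra1-scTra1, edgeR called 3 higher (gal7, gal10 and inv1) and 3 lower (mae2, dak2 and agl1). Over all genes 0.45% were called higher and 2.04% lower in this comparison. gal7 had 78.3, 85.4 and 74.5 CPM in tra1-spTra2 against 40.2, 35.7 and 31.7 CPM in tra1-scTra1 (1.15 ± 0.10, adjusted p = 1.27e-05 from edgeR). inv1 had 27.8, 30.0 and 30.2 CPM in tra1-spTra2 against 20.8, 12.3 and 10.4 CPM in tra1-scTra1 (1.03 ± 0.20, adjusted p = 0.00566). gal10 averaged 16.5 ± 6.60 CPM in tra1-spTra2 and 6.52 ± 1.15 CPM in tra1-scTra1 (SD, n = 3 each, no overlap; 1.34 ± 0.28, adjusted p = 0.00801). inv1 and gal10 each lost this call in 5 of the 6 fits without a library (adjusted p up to 0.0254 and 0.0386) and in the joint fit (0.294 and 0.0162), whereas gal7 did not lose it in the joint fit. Of 7 hexose transporters only ght5 was called. zym1, the metallothionein, had 52.3, 52.0 and 61.5 CPM in tra1-spTra2 against 24.4, 20.1 and 23.9 CPM in tra1-scTra1 (1.27 ± 0.12, adjusted p = 1.95e-05). ght5 differed by 0.69 ± 0.11 (adjusted p = 0.00163), with 2589, 2431 and 2922 CPM in tra1-spTra2 and 1915, 1592 and 1420.3 CPM in tra1-scTra1, and was not called without tra1-spTra2 replicate 3 (0.0115) or in the joint fit (0.714). The tra1-scTra1 strain thus had a ght5 level far above WT as well. ght1 and plb1 did not differ beyond the spread: plb1 had 5072, 5072 and 5829 CPM in tra1-spTra2 and 5415, 5351 and 5044 CPM in tra1-scTra1 (0.01 ± 0.09, adjusted p = 0.946), and ght1 20.4, 18.1 and 25.6 CPM and 21.3, 16.8 and 18.0 CPM (0.18 ± 0.16, adjusted p = 0.512). rpl102 was low in both, differing by 0.12 ± 0.06 (adjusted p = 0.249). A p above the threshold does not show equal levels.

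**Figure D5:**
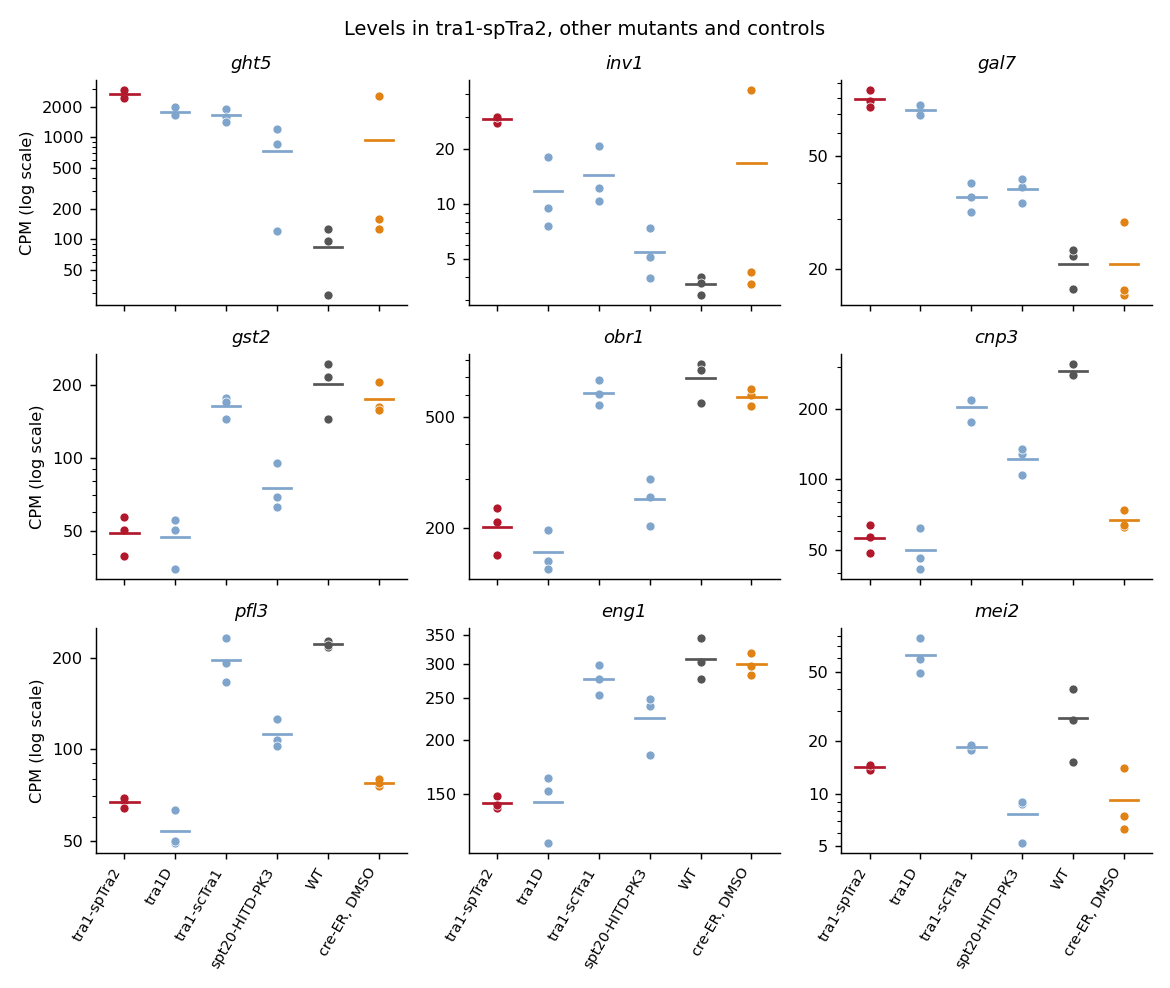
CPM (log axis) of 9 genes in the 3 libraries of tra1-spTra2, the other mutants, cre-ER and WT; points are libraries and bars are means. gst2, obr1 and eng1 are low in tra1-spTra2 and tra1D and near WT in tra1-scTra1 and cre-ER, whereas cnp3 and pfl3 are low in cre-ER too, and mei2 is highest in tra1D.

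The spt20-HITD-PK3 strain lacks the partner surface of the exchanged stretch, on Spt20 instead of Tra1. Against it edgeR called 2 of 4886 genes (0.0409%), both higher in tra1-spTra2. inv1 had 27.8, 30.0 and 30.2 CPM in tra1-spTra2 against 5.11, 7.39 and 3.94 CPM in spt20-HITD-PK3 (2.42 ± 0.19, adjusted p = 0.00594). gal7 had 78.3, 85.4 and 74.5 CPM in tra1-spTra2 against 39.0, 41.4 and 34.1 CPM in spt20-HITD-PK3 (1.05 ± 0.09, adjusted p = 0.00622). Both groups were well apart for these genes. Neither call held without any one of the tra1-spTra2 replicates 1, 2 and 3 (inv1 0.0618, 0.0668 and 0.041; gal7 0.0712, 0.0668 and 0.041) or without spt20-HITD-PK3 replicate 1 (0.0424 for both), nor that of gal7 without spt20-HITD-PK3 replicate 3 (0.0166) or that of inv1 in the joint fit (0.0754). No gene was called lower by edgeR, but at an unadjusted p under 0.05 223 were higher and 223 lower, and DESeq2 called 24 higher and 8 lower. Without spt20-HITD-PK3 replicate 2 edgeR called 63 genes, 42 higher and 21 lower, so that the number depends on that library. Its ght5 level shows the spread, with 866, 1215 and 120.0 CPM over the spt20-HITD-PK3 replicates. gst2 (−0.64 ± 0.18, adjusted p = 0.319), obr1 (−0.34 ± 0.17, adjusted p = 0.6) and eng1 (−0.66 ± 0.11, adjusted p = 0.0841) lay lower in tra1-spTra2 without passing the test.

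Short promoter motifs were counted in windows from 250 bases before to 50 after the annotated gene start, on both strands, as a description. The letters TGACGT, a site of the stress factor Atf1, occurred in 20.4% of windows of genes called higher (11 of 54) and in 10.2% of those called lower (13 of 128), against 5.83% of all 4904 windows. CCCCTC, a stress response element that the zinc finger protein Rst2 binds, occurred in 9.26% of windows of called rises (5 of 54) and 0.781% of those of called falls (1 of 128), against 2.18% of all windows. ACGCGT, the core of MBF sites, occurred in none of the 54 windows and in 0.781% of the 128, against 3.24% of all. The CCAAT box (44.4% and 43.8%, against 42.1%) and the GATA site GATAAG (12.96% and 11.7%, against 11.6%) were about as frequent in called genes as in all genes.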

How the data were processed

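RNA was measured by stranded, polyA-selected RNA-seq (single reads of 50 bases) in 3 cultures per strain. The authors trimmed adapters, aligned the reads and assigned them to genes by htseq-count (union mode, strand reversed, low-quality alignments dropped), and deposited the values as whole-number counts without normalization. The submitters' processing notes name HISAT2 2.1.0, HTSeq 0.9.1, DESeq2 1.18.1 and bcl2fastq. The genome build is not given in the sources used here, so no coordinates are printed. ASM294v3 (RefSeq) gave names (5114 of 5129 gene IDs matched, 4260 with a symbol), gene order, coding sequence, promoter windows and the share of 50-base windows that occur elsewhere. The boundaries of the exchanged stretch in Tra2 are the study's, placed in Tra1 by alignment (BLOSUM62). The number of columns left unused was 0.

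Libraries were grouped by their labels. For every comparison only its 6 libraries entered the model, fitted by edgeR 4.0.16 under R 4.3.3 (TMM, filterByExpr with a minimum count of 10, quasi-likelihood F-test, two-sided, Benjamini-Hochberg over all genes tested), and the standard error is the fold change divided by the root of F. Printed CPM were scaled by TMM over 18 libraries of 6 strains. At these depths, genes below about 10 CPM are imprecise. Where every tested library of a group held 0 counts, the fold is a bound against 3 counts per library. A gene is named if the study names its RNA, if it is tra1 or tra2, if it is among the 15 largest rises or falls with a mean of at least 10 CPM, among the 5 most abundant called genes, the 3 largest changes per direction in a direct comparison, a called member of a list or a leading member of a list with none. Others are named as neighbours of these or after their values were seen, as are the ribosome biogenesis genes. The members and lists were chosen with earlier results of these data known.

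Alternatives were RLE size factors, no filter, at least 10 counts in every library, DESeq2 1.42.0, the replicate number as a block, one model over all 36 libraries, the adjusted p alone, and leaving out each library. Calls in the lists without WT replicate 3 were added after the data were seen. The analysis was tested on simulated data. Replicate numbers were not shared by design in the sources used here.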

Additional observations from a re-analysis of the deposited data

How the results depend on the processing

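No result changed direction while called under any alternative run. Against WT, edgeR called 183 genes with RLE size factors, 184 with no filter, 170 with at least 10 counts in every library, 181 in a single fit of all 36 libraries and 239 with DESeq2 (75 higher, 164 lower), beside 182. The adjusted p alone gave 417. Leaving out each library gave between 77 and 217 genes, with 105 without WT replicate 1 and 77, 86 and 94 without tra1-spTra2 replicates 1, 2 and 3. Fits of 5 libraries have fewer degrees of freedom, and of 64 named called genes 31 lost the call in at least 1 of them. Of the other settings, the single fit of all 36 libraries cost 8 named called genes their call.

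Against tra1D the single fit of all 36 libraries called 12 genes instead of 36, and leaving out libraries gave 28 to 37. Against tra1-scTra1 it called 69 instead of 122, with 87 to 129 when a library was left out. Against spt20-HITD-PK3 it called 6 instead of 2, DESeq2 called 32, and leaving out libraries gave 0 to 63, the highest without spt20-HITD-PK3 replicate 2. The cause of these differences was not tested.

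Like-numbered tra1-spTra2 and WT libraries did not deviate together (r = −0.0016, −0.25 and −0.11), so the numbers were not taken to pair the samples. With the replicate number as a block, edgeR called 126 genes against WT (38 higher, 88 lower, 118 of them among the 182), 41 against tra1D, 129 against tra1-scTra1 and 0 against spt20-HITD-PK3, where 373 genes had an unadjusted p under 0.05, and 9 named called genes lost their call. Genes below about 10 CPM, and lists with few members, are limited by depth and by 3 cultures per strain.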

Other observations

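Ribosome biogenesis genes were looked at after the data were seen, since gar2 was among the most abundant genes called. Of 111 such genes tested against WT, chosen by words in RefSeq's product names, 102 lay below 0 with a median of −0.30, beside −0.19 for ribosomal proteins and 0.0036 for all genes. edgeR called 4 lower (3.60%, near the 2.61% called lower over all genes) and 0 higher, and DESeq2 called 6 and 0. At an unadjusted p under 0.05, 75 were lower and 3 higher, against 993 and 931 of all 4908 genes tested. sqt1, a ribosome assembly factor, had 155, 135 and 147 CPM in tra1-spTra2 against 273, 265 and 303 CPM in WT (−0.94 ± 0.07, edgeR adjusted p = 0.000177), and was called in each fit without a library. utp3, efg1 and cms1, also factors of ribosome assembly, fell by 0.60, 0.61 and 0.69. WT replicate 3 was the highest library for all 4 genes, and the list summed to 19373, 19237 and 17637 CPM in tra1-spTra2 against 22973, 21614 and 26052 CPM in WT. Without WT replicate 3 the median was −0.20 and 1 gene was called lower, so the size of this shift depends on that library.

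Some genes differed between cultures with an unaltered tra1 by as much as between the mutant and WT. nrg1 had 3.14, 0.758 and 0.472 CPM in cre-ER with DMSO, against 39.5, 63.3 and 18.7 CPM in WT, and SPAPJ695.02, an uncharacterized gene near an end of chromosome I that was called lower in tra1-spTra2 (0.562, 1.20 and 0.501 CPM, against 13.6, 16.9 and 4.68 CPM in WT), had 0.314, 1.06 and 0.472 CPM in cre-ER. car1 had 30.0, 25.6 and 31.8 CPM there, close to the 28.1, 29.1 and 30.2 CPM of tra1-spTra2. The cre-ER cultures differ from WT in the recombinase and in the timed growth with DMSO. Which of these or other strain differences goes with these levels was not tested.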
